A study of Mus musculus with 12 samples.

Results

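The 8 genes described here encode the machinery that moves calcium across the sarcoplasmic or endoplasmic reticulum membrane: the SERCA calcium pumps Atp2a1, Atp2a2 and Atp2a3, the ryanodine receptor release channels Ryr1, Ryr2 and Ryr3, and the small pump inhibitors sarcolipin (Sln) and phospholamban (Pln). They were taken by gene symbol from 47729 genes in the files, and all 8 were found once. Earlier results of these data were known when the genes were chosen. Levels came from RNA-seq of 12 libraries of surgically denervated fat from male wild type C57BL/6J mice aged 6 to 10 weeks on a standard low-fat diet. There were 3 libraries each of interscapular brown adipose tissue (BAT), inguinal white adipose tissue (IWAT), epididymal white adipose tissue (EWAT) and retroperitoneal white adipose tissue (RWAT). All 12 libraries came from denervated fat and innervated fat was not analysed here, so depot was the only factor. Nothing in the labels says whether replicates were taken from different mice. The spread between replicates, on which each p-value rests, may thus be technical.

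In muscle, release of stored calcium through ryanodine receptors triggers contraction, and SERCA pumps spend ATP to return it to the store. Sarcolipin and phospholamban are short membrane peptides that bind SERCA. Sarcolipin can let the pump spend ATP while moving less calcium, which releases heat, and calcium cycling by the Atp2a2 product SERCA2b with Ryr2 has been described as a route of heat production in beige fat of mice. Atp2a1 is the pump of fast skeletal fibres, Atp2a2 that of heart and slow fibres and, in another splice form, of most cells, and Atp2a3 is found in blood and epithelial cells. Ryr1 is the skeletal muscle channel, Ryr2 the heart channel and Ryr3 a channel of low level in many tissues.

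The inhibitors have short coding sequences, and their reading frames are shown. In each, the start and stop codons are in capitals, and the sequence is from the GENCODE M21 transcripts on build GRCm38. Sln (ENSMUSG00000042045) lies on chromosome 9, 53850164 to 53854560 on the plus strand, and its coding sequence of 96 bases is within 1 exon at chr9:53853473-53853568. Pln (ENSMUSG00000038583) lies on chromosome 10, 53337667 to 53345987 on the plus strand, and its coding sequence of 159 bases is within 1 exon at chr10:53343864-53344022.
Sln: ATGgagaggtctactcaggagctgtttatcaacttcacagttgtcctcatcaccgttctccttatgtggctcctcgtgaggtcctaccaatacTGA
Pln: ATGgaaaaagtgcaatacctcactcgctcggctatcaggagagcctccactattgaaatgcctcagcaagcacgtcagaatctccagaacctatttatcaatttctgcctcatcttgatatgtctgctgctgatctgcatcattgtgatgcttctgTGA
Sln has 31 codons before its stop codon and Pln has 52. The deposited files gave Sln a transcript length of 515 bases, whereas the transcript Sln-201 has 1318 bases in GENCODE M21, so the TPM of Sln depends on the annotation used upstream. The files gave Pln a transcript length of 2353 to 2480 bases, so its short coding sequence does not mean a short transcript.

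Atp2a1 (ENSMUSG00000030730) lies on chromosome 7, 126445858 to 126463108 on the minus strand, and Ryr1 (ENSMUSG00000030592) on the same chromosome and strand, 29003344 to 29125179. These 2 genes were high in the same libraries, so their upstream sequences are shown, 5′ to 3′, from the RefSeq promoter table of build GRCm38.p6. The 215 bases shown for Atp2a1 are at chr7:126463109-126463323 and the 222 bases shown for Ryr1 at chr7:29125180-29125401, both on the minus strand. Capitals mark an E-box, the letters CANNTG that basic helix-loop-helix factors bind.
Atp2a1: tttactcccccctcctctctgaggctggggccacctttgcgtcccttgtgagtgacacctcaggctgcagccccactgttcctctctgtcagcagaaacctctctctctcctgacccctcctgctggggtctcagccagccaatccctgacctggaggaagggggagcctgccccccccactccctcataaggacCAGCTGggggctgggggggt
Ryr1: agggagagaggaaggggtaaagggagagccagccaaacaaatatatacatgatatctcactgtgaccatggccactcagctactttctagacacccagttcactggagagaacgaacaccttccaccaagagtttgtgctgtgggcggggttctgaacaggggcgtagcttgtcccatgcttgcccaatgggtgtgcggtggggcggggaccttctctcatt
Over the 250 bases before the RefSeq start, Atp2a1 held 1 E-box and Ryr1 held 0, and neither held the MEF2-type motif, CTA and TAG with any 4 bases between. Each motif reads the same on both strands. Of 32851 windows of that length, 66.2% held an E-box and 3.20% the MEF2-type motif, so these matches are descriptions and not sites. The table had entries for 5 of the 8 genes: Atp2a1, Atp2a3, Ryr1, Ryr2 and Pln.

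Library totals ran from 15699763 to 25633270 estimated counts, and 3.28% to 19.0% of counts were mitochondrial. A count of 0 in a library allows up to 3 counts, or 0.117 to 0.191 CPM (library-scaled counts) depending on the library, and this covers counting error only. Skeletal muscle genes separated 4 libraries, the 3 of BAT and RWAT replicate 3, from the rest, and these are called muscle-rich below. Acta1, the actin of skeletal muscle, had 1217, 1250 and 243 TPM (a level scaled by transcript length and library) in BAT replicates 1, 2 and 3, against 1.51, 2.77 and 1.16 TPM in IWAT, 1.81, 2.37 and 2.05 in EWAT, and 12.1, 7.56 and 1992 in RWAT. Ttn, the giant sarcomere protein titin, had 108, 132 and 24.7 TPM in BAT and 223 in RWAT replicate 3, against 0.09 to 2.36 TPM in the other 8 libraries. The summed level of 18 skeletal muscle genes was 7665, 8843 and 1926 TPM in BAT and 11932 TPM in RWAT replicate 3, against 27.5 to 104.8 TPM in the other 8 libraries. None of the 18 was at 0 in the BAT libraries or in any RWAT library, replicates 1 and 2 included, so this does not set the muscle-rich libraries apart. Each result below is therefore given beside these genes, and results that rest on RWAT replicate 3 are given without it too. In bulk tissue, fewer cells of a type and less RNA per cell cannot be told apart.

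The muscle pump and the muscle release channel were high where the muscle genes were high, in all 3 BAT libraries and in RWAT replicate 3, and were near the detection limit or low elsewhere. Atp2a1 had 336, 349 and 69.0 TPM in BAT, against 0.03, 0.38 and 0.20 TPM in IWAT, 0.05, 0.09 and 0.13 in EWAT, and 0.90, 1.11 and 454 in RWAT. The lowest BAT library, replicate 3, was also the BAT library with the lowest Acta1. In the 8 other libraries Atp2a1 had 2 to 51 counts, against 3402 to 20588 in the BAT libraries and RWAT replicate 3. Ryr1 had 26.8, 30.0 and 6.79 TPM in BAT, against 0.04, 0.14 and 0.28 TPM in IWAT, 0.16, 0.59 and 0.34 in EWAT, and 0.35, 0.29 and 52.4 in RWAT. Its counts in the 8 low libraries were 15 to 127, above the 3 counts that a 0 allows. The Ryr1 TPM of RWAT replicate 1 rests on an effective length of 3821 bases, against at least 13288 in the IWAT and EWAT libraries. In TMM-scaled CPM, RWAT replicate 1 had 1.01, against 1.83, 5.39 and 2.99 in EWAT. The order of the depots by mean TPM was BAT, RWAT, IWAT, EWAT for Atp2a1 and BAT, RWAT, EWAT, IWAT for Ryr1, but BAT and RWAT overlapped in both genes, as did IWAT and EWAT. The 4 muscle-rich libraries lay above the other 8 in TPM in Atp2a1 and Ryr1, in Sln only through a single count in BAT replicate 3 that is under the floor of 3, and in 182 of 19154 genes tested, 0.95%. That split was made on the levels of muscle genes and has no test.

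Sarcolipin counts passed the floor of 3 in 3 of the 12 libraries, BAT replicates 1 and 2 and RWAT replicate 3. It had 91, 35 and 1 counts in BAT replicates 1, 2 and 3 (10.2, 5.48 and 0.14 TPM), 376 counts in RWAT replicate 3 (70.98 TPM), and 0 counts in the other 8 libraries. RWAT replicate 3 thus held more sarcolipin than the 3 BAT libraries together, which had 127 counts. Against the floor of 3 counts over the 3 libraries of a depot, BAT was at least 43.8-fold higher than IWAT and at least 37.9-fold higher than EWAT in pooled CPM. BAT replicate 1 held 91 of the 127 counts, and without it, an alternative added after seeing the data, the bounds were 19.1-fold against IWAT and 16.5-fold against EWAT. The single count in BAT replicate 3 is under the floor of a library, so its level there cannot be told from 0.

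**Figure D1:**
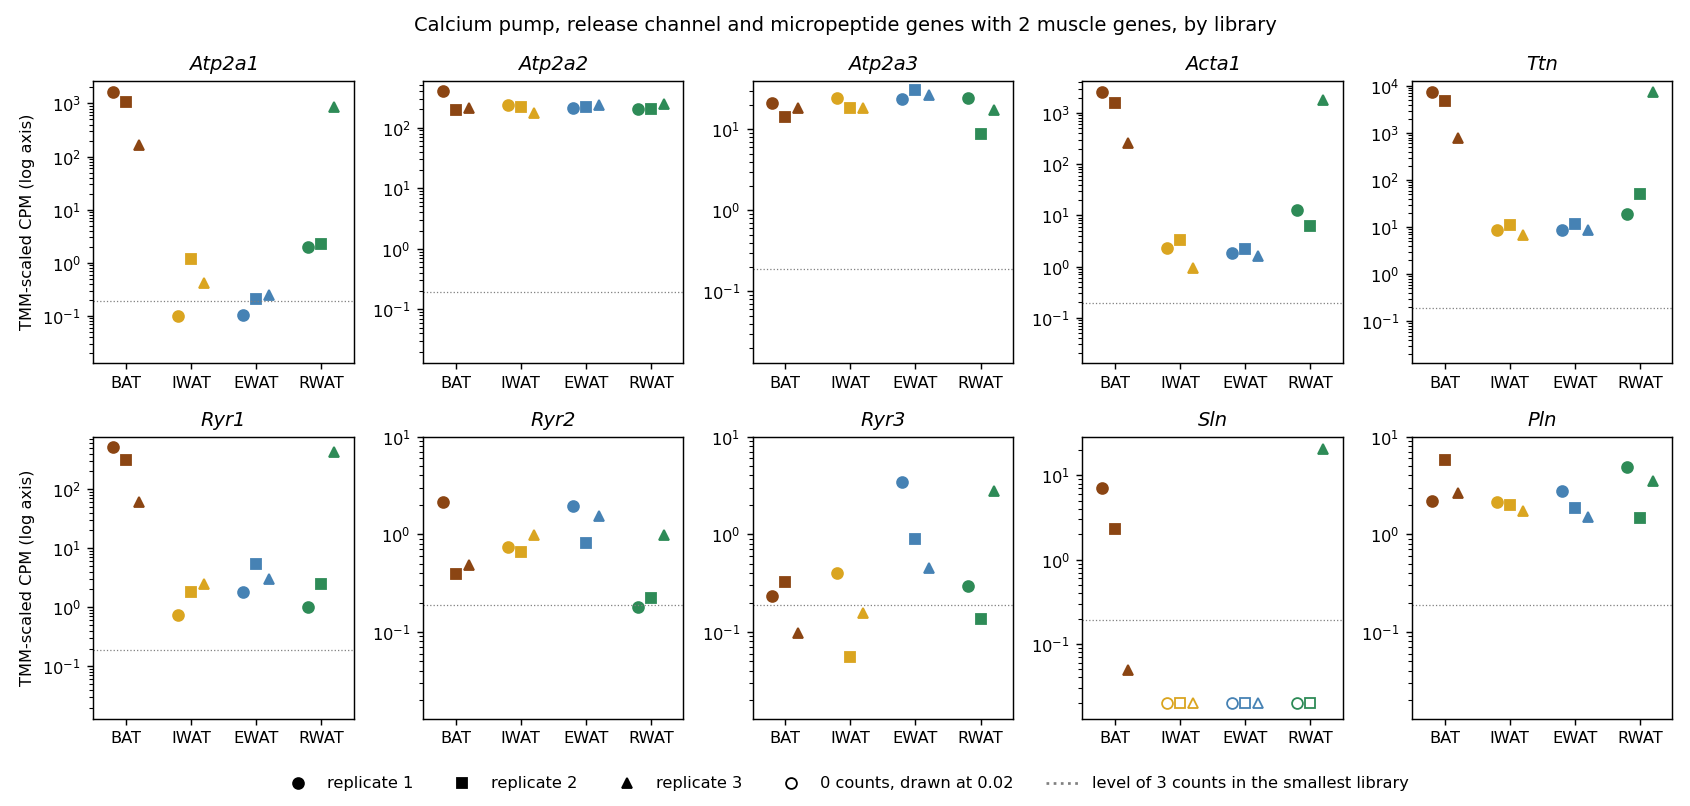
Level of each gene in TMM-scaled CPM (log axis, range differing between panels) in the 12 libraries, with depots on the horizontal axis and a symbol per replicate. Open symbols are libraries with 0 counts, drawn at 0.02. The dotted line is 3 counts in the smallest library, 0.191 CPM before TMM scaling. Points above the line can still hold only 3 counts, as Ryr3 in BAT replicate 1 does at 0.236. Atp2a1 and Ryr1 have their high points in BAT and RWAT replicate 3, as have Acta1 and Ttn. The 3 Sln points above the floor are BAT replicates 1 and 2 and RWAT replicate 3. Atp2a2 runs from 177 CPM in IWAT replicate 3 to 402 CPM in BAT replicate 1.

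The pump of most cells, Atp2a2, varied little between libraries. It had 60.8, 51.2 and 62.2 TPM in BAT, against 48.95, 58.7 and 71.1 TPM in IWAT, 67.1, 77.8 and 96.2 in EWAT, and 64.5, 77.3 and 89.98 in RWAT. In TPM the highest library was 1.96 times the lowest, and each depot overlapped its neighbour in the order EWAT, RWAT, IWAT, BAT. The SD of its log2 CPM over the 12 libraries was 0.29, and 22.5% of genes tested varied less. Atp2a2 (ENSMUSG00000029467, chromosome 5, 122453513 to 122502225, minus strand) is used in both muscle and other cells, and gene-level values do not separate its splice forms. In TPM, the level in RWAT replicate 3, where the TPM of Acta1 was highest, was within the range of the EWAT libraries. In TMM-scaled CPM, RWAT replicate 3 had 247, above the 213, 220 and 237 of EWAT. On that scale BAT had the highest mean, 268, from 402, 194 and 209 in replicates 1, 2 and 3. BAT replicate 1 was also the highest library in Acta1 on that scale. The part of muscle RNA in the Atp2a2 level was not tested.

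Atp2a3 averaged 4.34 ± 1.25 TPM in BAT, 6.10 ± 1.37 in IWAT, 10.5 ± 2.42 in EWAT and 6.57 ± 2.58 in RWAT (SD, n = 3 each). The 3 BAT libraries had 3.09, 4.35 and 5.58 TPM, against 7.99, 10.8 and 12.8 TPM in the EWAT libraries, and these depots did not overlap in TPM. IWAT, with 5.45, 5.18 and 7.67 TPM, and RWAT, with 8.32, 3.60 and 7.78 TPM, overlapped both BAT and each other. Atp2a3 (ENSMUSG00000020788) lies on chromosome 11, 72961169 to 72993044 on the plus strand.

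The makeup of the SERCA transcripts therefore differed between libraries. Atp2a1 made up 84.0%, 86.3% and 50.5% of the summed SERCA TPM in BAT and 82.3% in RWAT replicate 3, against 0.0551% to 1.35% in the other 8 libraries. Atp2a2 made up 12.7% to 45.5% in those 4 libraries and 87.5% to 94.3% in the other 8. Atp2a3 made up 0.773% to 4.08% against 4.39% to 12.1%. The summed SERCA level was 136.7 to 552 TPM in the BAT libraries and RWAT replicate 3, against 54.4 to 109 TPM in the rest. By depot, the Atp2a1 share averaged 73.6% ± 20.1 in BAT, 0.300% ± 0.271 in IWAT, 0.0957% ± 0.0268 in EWAT and 28.3% ± 46.8 in RWAT (SD, n = 3 each). With the posterior mean TPM of the files in place of the TPM, the EWAT share of Atp2a1 was 0.261%.

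**Figure D2:**
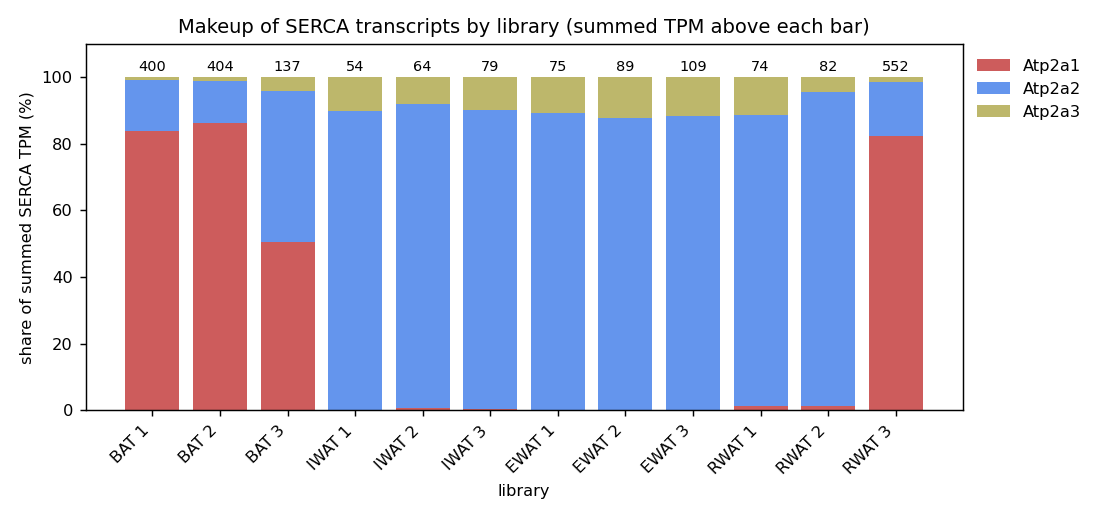
Share of each SERCA gene in the summed SERCA TPM (percent, bars from 0 to 100) in each of the 12 libraries, with the summed TPM printed above each bar. Atp2a1 makes up 50.5% to 86.3% in the BAT libraries and RWAT replicate 3, and Atp2a2 makes up 87.5% to 94.3% in the other 8 libraries.

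The heart and low-level channels were scarce in every depot. Ryr2 (ENSMUSG00000021313, chromosome 13, 11553102 to 12106945, minus strand) had 27, 6 and 10 counts in BAT, against 15, 12 and 19 counts in IWAT, 37, 19 and 31 in EWAT, and 3, 5 and 18 in RWAT, and at most 0.16 TPM. All neighbouring depots overlapped in TPM. Its highest count was in EWAT replicate 1, but in TMM-scaled CPM the highest library was BAT replicate 1, at 2.12, against 1.94, 0.81 and 1.54 in EWAT. Ryr3 (ENSMUSG00000057378, chromosome 2, 112631355 to 113217096, minus strand) had 3, 5 and 2 counts in BAT, against 8, 1 and 3 counts in IWAT, 66, 21 and 9 in EWAT, and 5, 3 and 51 in RWAT. It passed 3 counts in 7 of 12 libraries, and EWAT replicate 1 and RWAT replicate 3 held most of its counts. The TPM of Ryr3, at most 0.78, is uncertain because RSEM assigned its few reads to isoforms whose effective length averaged 665 to 15297 bases between libraries. Ryr1 made up 99.3% to 99.8% of the summed ryanodine receptor TPM in BAT and 98.4% in RWAT replicate 3, against 16.5% to 78.7% of sums of 0.18 to 0.97 TPM in the other libraries.

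Phospholamban, the inhibitor of the heart and slow fibre pump, was low in all depots and had no depot that stood apart. Pln had 0.58, 2.66 and 1.38 TPM in BAT, against 0.82, 0.97 and 1.21 TPM in IWAT, 1.59, 1.18 and 1.14 in EWAT, and 2.82, 1.02 and 2.30 in RWAT. Every library held 28 to 89 counts, and neighbouring depots overlapped. Unlike Sln, it was detected in the 8 libraries with little muscle RNA.

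Counts relative to Acta1 show how closely each gene followed the muscle actin within the muscle-rich libraries. Per 100 Acta1 counts, Atp2a1 had 61.8, 65.4 and 63.3 counts in BAT replicates 1, 2 and 3 (exact 95% intervals 60.8 to 62.9, 64.1 to 66.8 and 60.6 to 66.1) and 47.8 in RWAT replicate 3 (46.9 to 48.7). The interval of BAT replicate 3 overlapped those of BAT replicates 1 and 2, which did not overlap each other. That of RWAT replicate 3 lay below all 3 BAT intervals. Ryr1 had 19.9, 19.7 and 23.1 counts per 100 Acta1 counts in BAT and 24.5 in RWAT replicate 3, a range of 1.24-fold, while Acta1 itself ranged from 5375 to 33295 counts. The range depended on the muscle gene set below it: per 100 Ttn counts, Atp2a1 had 20.9 to 22.0 counts in BAT and 11.5 in RWAT replicate 3, a range of 1.91-fold. Ryr1 had 6.63 to 7.64 in BAT and 5.89 in RWAT replicate 3. These intervals cover counting error only.

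The ratio of sarcolipin to Acta1 varied more. Per 100 Acta1 counts, Sln had 0.273, 0.142 and 0.0186 counts in BAT (exact 95% intervals 0.220 to 0.336, 0.0992 to 0.198 and 0.000471 to 0.104) and 1.16 in RWAT replicate 3 (1.04 to 1.28). The value of BAT replicate 3 rests on 1 count, and over the 3 libraries with more than 3 Sln counts, a restriction chosen after seeing the data, the range was 8.13-fold. The order of these 4 libraries in Sln was not that in Acta1. Genes named next were chosen after their values were seen. Casq1, the fast-fibre calcium store protein, kept 4.90 to 5.46 counts per 100 Acta1 counts, a range of 1.11-fold. Myh2, a fast-fibre myosin, ranged from 6.15 to 27.4 counts, 4.46-fold, so a wide range was not particular to sarcolipin. Mrln, which encodes the SERCA-binding peptide myoregulin, kept 0.0930 to 0.138 counts, a range of 1.49-fold. Myh7, the slow-fibre myosin, ranged from 0.149 to 7.23 counts, 48.6-fold, with 2406, 324 and 8 counts in BAT and 815 counts in RWAT replicate 3. Tnnt1, the slow-fibre troponin T, had 49.6, 12.8 and 1.49 TPM in BAT and 72.2 TPM in RWAT replicate 3. The summed level of 7 slow-fibre genes was 240.5, 63.4 and 7.89 TPM in BAT and 239.5 TPM in RWAT replicate 3, against 1.66 to 18.7 TPM in the other 8 libraries. The summed level of 7 heart genes was 115.9 TPM in RWAT replicate 3, against 2.18 to 12.3 TPM in BAT and at most 19.3 TPM elsewhere. None of the 7 was at 0 in RWAT replicate 3 or in EWAT replicate 1. Actc1, the cardiac actin, with 74.6 TPM, and Tnnt2, the cardiac troponin T, with 35.2 TPM, made up most of the sum in RWAT replicate 3, and both are also made in developing skeletal muscle. Tnni3, the troponin I of heart, had 3.43 TPM in RWAT replicate 3, against 2.31, 16.9 and 4.78 TPM in EWAT. The part of slow-fibre and heart genes in the sarcolipin levels was not tested.

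**Figure D3:**
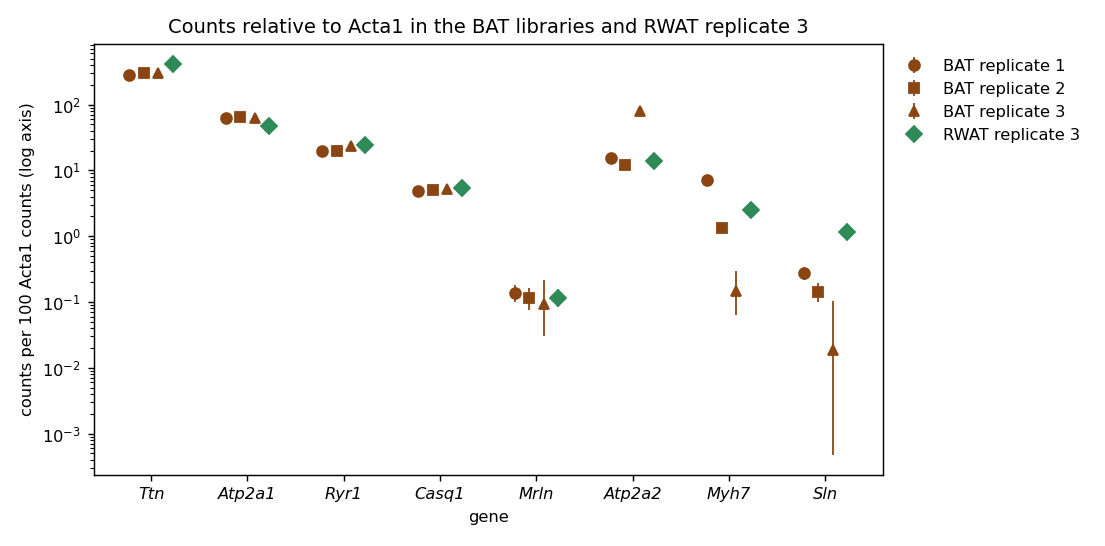
Counts of 8 genes per 100 Acta1 counts (log axis) in the 3 BAT libraries and RWAT replicate 3, a symbol per library, with exact 95% intervals for counting error as bars where they exceed the symbol. The ranges are 1.11-fold for Casq1, 1.24-fold for Ryr1, 1.37-fold for Atp2a1, 1.46-fold for Ttn and 1.49-fold for Mrln, while Sln runs from 0.0186 (a single count) to 1.16 and Myh7 from 0.149 to 7.23.

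Outside the muscle-rich libraries Ryr1 counts exceeded Atp2a1 counts in IWAT, EWAT and RWAT replicate 2, but not in RWAT replicate 1, with 17 and 33. Other muscle genes also spread widely per 100 Acta1 counts there, Casq1 from 3.77 to 77.8 and Ttn from 154 to 798. Per 100 Ttn counts, Ryr1 had 5.20 and 5.01 in RWAT replicates 1 and 2, beside 5.89 in RWAT replicate 3. Per 100 Acta1 counts, Ryr1 had 8.02 to 266.7 counts in the 8 other libraries, and Atp2a1 4.35 to 44.4. The highest Ryr1 ratios were 266.7 in IWAT replicate 3 and 244 in EWAT replicate 2, from 48 and 127 Ryr1 counts beside 18 and 52 Acta1 counts. All 3 EWAT libraries held at least as many Ryr1 as Acta1 counts, whereas Atp2a1 stayed below Acta1 in each of the 8 libraries. Per length the order was the other way, since Ryr1 is a far longer transcript: the ratio of Ryr1 to Acta1 in TPM was 0.0884, 0.249 and 0.166 in EWAT, against 0.0220 to 0.0279 in the muscle-rich libraries.

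The first comparison asked which genes differed between BAT and the white depots, with the mean of the fitted log2 levels of IWAT, EWAT and RWAT as the white level. By edgeR's quasi-likelihood test with Benjamini-Hochberg adjustment at 0.05, 0 of the 8 genes were called, against 19 of 19154 genes tested, 0.0992%. DESeq2 called 3 of them, against 950 of all genes, 4.96%, and limma-voom 0, against 0.0157%. In edgeR 2 had an unadjusted p under 0.05, against 18.1% of all genes. With the replicate number as a block, edgeR called 1 of them, Atp2a1, and 649 of all genes, 3.39%. The log2 fold change of Atp2a1 was 8.23 (SE 1.44, adjusted p = 0.0811) and that of Ryr1 was 4.98 (SE 1.20, adjusted p = 0.117). These stand beside 6.79 (SE 1.23, adjusted p = 0.0845) for Acta1 and 6.19 (SE 1.21, adjusted p = 0.0857) for Ttn in the same edgeR fit. All 3 BAT libraries lay above the 8 white libraries other than RWAT replicate 3 in Atp2a1 and Ryr1. Without RWAT replicate 3, edgeR called both, with log2 fold changes of 10.58 (SE 0.80, adjusted p = 0.000219) and 7.10 (SE 0.65, adjusted p = 0.000563). RWAT replicate 3 was set apart by its muscle gene levels, so these p-values are descriptions and give no separate test of depot. That fit called 257 of 20594 genes, 1.25%, and gave 8.78 (SE 0.68, adjusted p = 0.000225) for Acta1 and 8.24 (SE 0.64, adjusted p = 0.000219) for Ttn by edgeR. Over 19 alternative settings their adjusted p ran from 3.08e-08 to 0.404 for Atp2a1 and from 0.000563 to 0.693 for Ryr1, and the direction was the same in each. The part of the muscle RNA in these differences was not tested.

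The fitted log2 value for Sln was 5.55 (SE 2.46, adjusted p = 0.293 by edgeR), a value that depends on the count added to libraries at 0. DESeq2 called it higher in BAT than in the white mean (adjusted p = 0.00132). Beside RWAT alone, mean Sln was lower in BAT, 3.17 against 6.80 TMM-scaled CPM, with all RWAT counts in replicate 3. Pln had a log2 value of 0.59 (SE 0.39, adjusted p = 0.400), Atp2a2 0.30 (SE 0.22, adjusted p = 0.431) and Atp2a3 −0.23 (SE 0.26, adjusted p = 0.598) by edgeR. For Atp2a2 the sign turned to −0.19 without TMM scaling and to −0.11 without BAT replicate 1. Leaving out TMM moved the median of all genes from −0.07 to −0.46. Ryr2 had 0.28 (SE 0.61, adjusted p = 0.792) and Ryr3 −1.70 (SE 1.09, adjusted p = 0.390) in the edgeR fit. These p-values do not show that the levels were alike.

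The comparison of IWAT with the mean of EWAT and RWAT set the subcutaneous depot against the abdominal ones. edgeR called 0 of the 8 genes, against 27 of 19154 genes tested, 0.141%, and DESeq2 (1.9% of all genes) and limma-voom (0.0835%) also called 0. Only Ryr3 had an unadjusted p under 0.05 in edgeR, as had 11.5% of all genes, at −2.63 (log2, SE 1.11, adjusted p = 0.423), and it had 12 counts in IWAT. Atp2a1 had −3.74 (SE 2.02, adjusted p = 0.480) and Ryr1 −3.72 (SE 1.71, adjusted p = 0.436) by edgeR, beside −3.94 (SE 1.68, adjusted p = 0.423) for Acta1. Without RWAT replicate 3 these were −0.22 for Atp2a1 and −0.55 for Ryr1, with adjusted p = 0.963 and 0.822 in edgeR. Atp2a2 had −0.08 (SE 0.23, adjusted p = 0.885), Atp2a3 −0.07 (SE 0.28, adjusted p = 0.919), Ryr2 −0.02 (SE 0.73, adjusted p = 0.993) and Pln −0.41 (SE 0.44, adjusted p = 0.684) by edgeR. The signs of Atp2a2, Atp2a3 and Ryr2 turned in some of the alternative settings. No fold is given for Sln, which had 0 counts in IWAT and EWAT and counts in 1 RWAT library.

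Between EWAT and RWAT, the abdominal depots, edgeR called 0 of the 8 genes, against 8 of 19154 genes tested, 0.0418%. DESeq2 called 3 (Atp2a1, Ryr1 and Sln, lower in EWAT), against 546 of all genes, 2.85%, and limma-voom 0, against 0.0418%. Atp2a1, Ryr1 and Sln had an unadjusted p under 0.05 in edgeR, as had 9.04% of all genes. The log2 fold change was −10.48 for Atp2a1 (SE 2.60, adjusted p = 0.214) and −5.40 for Ryr1 (SE 1.90, adjusted p = 0.378) by edgeR, beside −8.29 (SE 2.11, adjusted p = 0.225) for Acta1. Without RWAT replicate 3 that of Atp2a1 was −3.44 (SE 1.04, adjusted p = 0.358 by edgeR), and that of Ryr1 turned to 0.93 (SE 0.87, adjusted p = 0.737). The direction of Ryr1 between these depots thus rested on 1 library. Atp2a3 had 0.70 (SE 0.32, adjusted p = 0.562), Ryr2 1.63 (SE 0.77, adjusted p = 0.580), Ryr3 0.59 (SE 1.05, adjusted p = 0.909), Pln −0.68 (SE 0.49, adjusted p = 0.757) and Atp2a2 0.03 (SE 0.27, adjusted p = 0.981) by edgeR. The sign of Atp2a2 turned in 3 settings that left out a library, and that of Ryr3 without EWAT replicate 1. Sln had 0 counts in the EWAT libraries and in RWAT replicates 1 and 2, so its difference is that of RWAT replicate 3 alone.

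**Figure D4:**
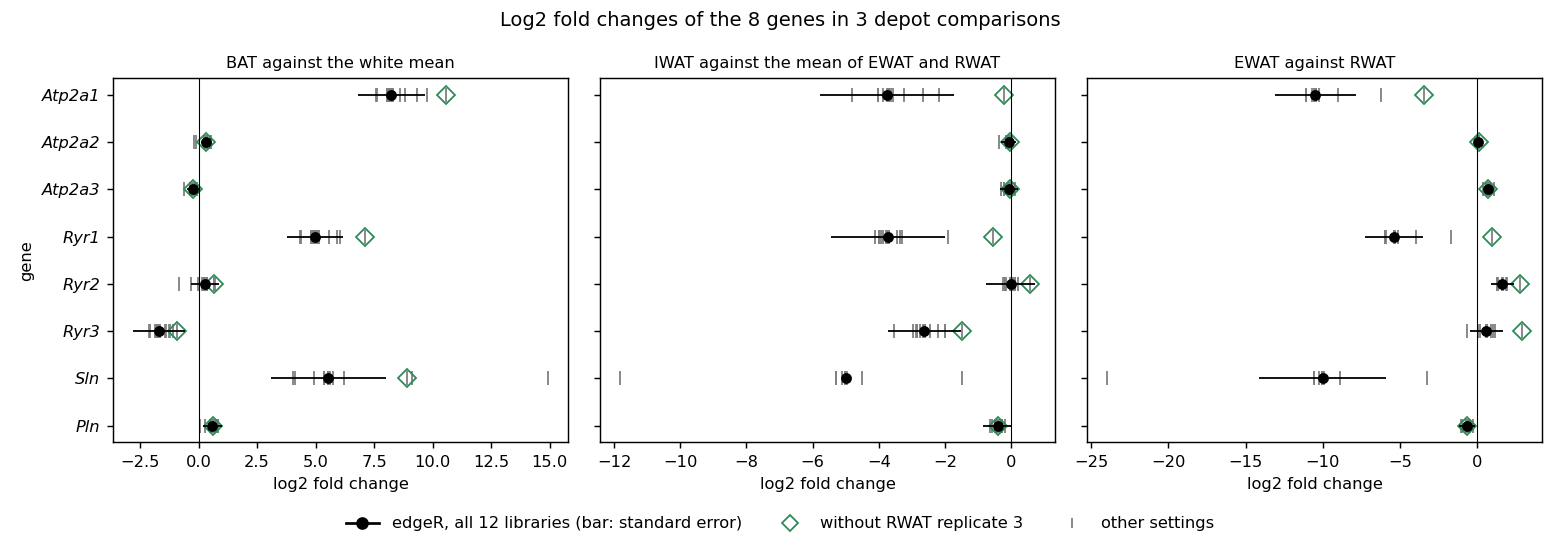
Log2 fold changes (horizontal axis, range differing between panels) of the 8 genes in 3 panels (BAT with the white mean, IWAT with EWAT and RWAT, EWAT with RWAT); black points with standard error bars are edgeR with all 12 libraries, diamonds leave out RWAT replicate 3, and ticks are the other settings (no bar is drawn for Sln in the middle panel, where its standard error has no meaning). Atp2a1 and Ryr1 lie near 0 in the middle panel without RWAT replicate 3, at −0.22 and −0.55, against −3.74 and −3.72 with it.

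Other genes of muscle calcium release were read beside the 8. Of 17 genes of the sarcoplasmic reticulum and excitation-contraction coupling, edgeR called 0 in BAT against the white mean, beside 0.0992% of all genes tested. Of these genes, 13 had an unadjusted p under 0.05, against 18.1% of all genes tested. Their median log2 fold change was 2.90, beside −0.07 over all genes tested. Casq1 had 5.22 (SE 1.1, adjusted p = 0.0947 by edgeR) and Trdn, which anchors calsequestrin to the release channel, 7.38 (SE 1.39, adjusted p = 0.0854), both named after their values were seen. Asph, the member with the highest mean level, encodes junctional proteins and a hydroxylase of many cells, and had −0.03 (SE 0.25, adjusted p = 0.955 by edgeR). The same list had a median of −1.94 in IWAT against EWAT and RWAT and −2.73 in EWAT against RWAT. In each 0 were called, beside 0.141% and 0.0418% of all genes. The 18 skeletal muscle genes had medians of 7.22, −3.83 and −7.76 in the 3 comparisons, with 0 called by edgeR in each and 18, 4 and 18 under an unadjusted p of 0.05, against 18.1%, 11.5% and 9.04% of all genes.

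Genes of general calcium handling, in the endoplasmic reticulum and at other membranes, had medians near that of all genes. Their medians were −0.13 in BAT against the white mean, 0.03 in IWAT against EWAT and RWAT and 0.07 in EWAT against RWAT. Of 14 such genes edgeR called 0 in each comparison, beside 0.0992%, 0.141% and 0.0418% of all genes. In BAT against the white mean, 6 of the 14 had a positive log2 value. The values ran from −0.982 for Orai2 to 0.898 for Itpr2, both named after their values were seen. An unadjusted p under 0.05 by edgeR was reached by 3, 2 and 0 of the 14, against 18.1%, 11.5% and 9.04% of all genes. Calr, the calcium buffer calreticulin and the highest of them, averaged 308 TPM in BAT, against 444 TPM in IWAT, 523 in EWAT and 497 in RWAT, and a difference of −0.13 (log2, SE 0.22, adjusted p = 0.733 by edgeR) in BAT against the white mean. Itpr1, an inositol trisphosphate receptor named after its values were seen, had 29.6 to 47.7 TPM in BAT and 26.4 to 46.1 TPM in the white libraries. On TMM-scaled counts its difference in BAT against the white mean was 0.555 (log2, SE 0.181, adjusted p = 0.178 by edgeR). Per length, its lowest level in the 8 libraries with little muscle RNA was far above the highest Ryr1 level there, 0.59 TPM.

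Of 7 other names for SERCA-binding peptides, 3 were in the files and 2 had enough counts to test. 1810037I17Rik, whose product is a SERCA-binding peptide of many tissues, had 22.0 to 38.0 TPM in BAT and 29.0 to 46.6 TPM in the white libraries, and a difference of 0.27 (log2, SE 0.19, adjusted p = 0.431 by edgeR) on TMM-scaled counts. Its mean TPM went the other way, 32.1 in BAT, against 38.9 in IWAT, 36.0 in EWAT and 38.7 in RWAT, so no direction is given. Mrln had 46, 28 and 5 counts in BAT and 38 in RWAT replicate 3, against 0 to 3 counts in the other 8 libraries, and a difference of 3.73 (log2, SE 1.16, adjusted p = 0.166 by edgeR). The medians of these 2 genes were 2.00, −0.46 and −1.90 in the 3 comparisons. In each 0 were called, beside 0.0992%, 0.141% and 0.0418% of all genes.

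The levels of the muscle members were also set beside the brown fat marker Ucp1, the uncoupling protein of brown fat. Ucp1 had 1191, 21.7 and 563 TPM in BAT, against 27.2, 93.6 and 23.0 TPM in IWAT, 0 to 0.08 in EWAT, and 10.3, 1.36 and 0.16 in RWAT. Among the BAT libraries the highest Atp2a1 and Ryr1 were in replicate 2 in TPM and in replicate 1 in TMM-scaled CPM, and Ucp1 was lowest in replicate 2 and highest in replicate 1 on both scales. RWAT replicate 3 had the lowest Ucp1 of RWAT. Of 10 brown adipocyte genes, edgeR called 4 higher in BAT than in the white mean, among them Ucp1 and Elovl3. It called 0 of the 8 calcium genes and 19 of 19154 genes tested, 0.0992%, so 0 of 8 does not set them apart from other genes.

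Genes with the most similar pattern were taken as those with the smallest root mean square difference in log2 CPM. Each gene was centred on its mean over the 12 libraries. Predicted genes and the members themselves were left out, so no member could be listed for another. Genes compared had a mean log2 CPM of at least 3 for Atp2a2, Atp2a3 and Ryr1 (9735 genes) and at least 0 for the other members (13106 genes). For Atp2a1 these were Xirp2 (0.47), Tnnt3 (0.61) and Pvalb (0.75), out of 13106 genes compared. For Ryr1 they were Pygm (0.69), Neb (0.75) and Eno3 (0.86), and for Sln Tnnc1 (0.89), Ankrd23 (0.91) and Tnnt1 (0.91). Tnnt3, Pvalb, Neb and Eno3 were among the skeletal muscle genes used above, and Tnnc1 and Tnnt1 among the slow-fibre genes. For Atp2a2 they were Gtf3a (0.12), Rabgef1 (0.12) and B3gat3 (0.13), for Atp2a3 Jade2 (0.23), Vwf (0.25) and Apoe (0.28), and for Pln Zfp579 (0.31), Lncpint (0.32) and Tmem88b (0.32). For Ryr2 they were Snx22 (0.58), Pgap3 (0.64) and Cnbd2 (0.65), and for Ryr3 Thsd4 (0.62), Slc7a4 (0.69) and Perp (0.69). These distances are over 12 libraries that share depot and muscle RNA.

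Whether reads were counted by strand is not given in the sources used here, so reads of a gene and of its partner on the opposite strand cannot be told apart. Atp2a1 overlaps Rabep2 by 3388 bases, Ryr3 overlaps Aven by 3219 bases, and Pln lies within Cep85l. Ryr1 overlaps the antisense genes Gm26604, with 74.4 counts over the 12 libraries, and Gm38979, with 7.0, against 391 Ryr1 counts in the 8 libraries with little muscle RNA. Atp2a2 overlaps Gm43361 on the opposite strand, with 1377 counts over the 12 libraries against 50981 for Atp2a2. The low Atp2a1 and Ryr1 counts outside the muscle-rich libraries are uncertain for this reason.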

How the data were processed

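Per the labels' protocols, libraries were made from total RNA after ribosomal RNA removal and read from 1 end, 75 bases each. Trimmomatic 0.36, RSEM 1.3.0, DESeq2 1.10.1 and build GRCm38.p4 are listed in the submitters' processing notes. Not given in the sources used here were annotation and strand setting. The authors deposited the expected count (RSEM's estimated count) of each gene, not normalised, and per the file headers a posterior SD of that count. TPM was also computed by the authors, per the file headers, and served here for levels and not for tests.

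Counts were rounded, filtered with filterByExpr (leaving 19154 genes, all 8 members among them) and TMM-scaled. Tests used glmQLFTest of edgeR 4.0.16 under R 4.3.3, with depot as the factor in a joint fit of the 12 libraries, and Benjamini-Hochberg adjusted p-values over all genes at 0.05. Alternatives were DESeq2 1.42.0, limma-voom (limma 3.58.1), RLE scaling, no TMM, no filter, a filter of 1 CPM in 3 libraries, a replicate block and each library left out. The fit was tested on simulated data. Intervals are exact (Clopper-Pearson, 95%). No pair of libraries held identical values, and same-depot pairs differed by more than sampling noise.

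Members and gene lists were chosen with earlier results of these data known. Genes named by rule are the 8 members, Acta1, Ttn, up to 2 called genes per list and direction (with none called, the highest by mean level), and the 3 genes most like each member. Any other gene is marked in the text as chosen with its values in view.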

Additional observations from a re-analysis of the deposited data

How the results depend on the processing

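No member was called by edgeR in any of the 3 comparisons (2, 1 and 3 had an unadjusted p under 0.05), and the settings that moved this for BAT against the white mean were DESeq2 (3 called), no filter (1), the replicate block (1) and leaving out a library (0 to 2, with 1 without RWAT replicate 1 and 2 without RWAT replicate 3). DESeq2 also called 3 in EWAT against RWAT, and every setting called 0 in IWAT against EWAT and RWAT. Genes called in BAT against the white mean were 19, against 950 with DESeq2, 3 with limma-voom, 11 without TMM, 47 without the filter and 1 to 263 with a library left out. For IWAT they were 27, against 364 with DESeq2, 16 with limma-voom and 6 to 139 with a library left out. For EWAT against RWAT they were 8, against 546 with DESeq2 and 0 to 804 with a library left out, 0 without EWAT replicate 2, where 1016 genes had an unadjusted p under 0.05. The cause was not tested.

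The direction of Atp2a1, Pln and Sln was the same in every setting that gave a value. Without RWAT replicate 3, Sln was at 0 in every white library and gave no value between white depots. In BAT against the white mean, the log2 value turned sign without TMM for Atp2a2 (−0.19) and Ryr2 (−0.32) and with limma-voom for Ryr2 (−0.021). With 1 library left out it ran from −0.11 to 0.52 for Atp2a2 and from −0.86 to 0.70 for Ryr2, both lowest without BAT replicate 1. In IWAT against EWAT and RWAT, Ryr2 turned to 0.00041 with DESeq2 and 0.21 with limma-voom. With 1 library left out, Atp2a2 ran from −0.17 to 0.034, Atp2a3 from −0.22 to 0.12 and Ryr2 from −0.20 to 0.56. In EWAT against RWAT these ranges were −0.020 to 0.12 for Atp2a2, −5.98 to 0.93 for Ryr1 and −0.65 to 2.88 for Ryr3.

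Replicate numbers are shared between depots, and 10 of 18 pairs of same-numbered libraries had a correlation of deviations over 0.1 (−0.35 to 0.68). The highest were BAT with IWAT for numbers 1 and 3 (0.604 and 0.677) and IWAT with RWAT for number 1 (0.629). Differently numbered libraries were not compared, so whether the numbers pair libraries cannot be told. The main fit did not pair them. With the replicate block, edgeR called 649, 19 and 12 genes in the 3 comparisons, 1 member (Atp2a1) in the first and 0 in the others, and Ryr2 turned to 0.062 in the second. Depth limits Ryr2, Ryr3 and Sln, whose counts in many libraries were near the floor of 3.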

Other observations

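Marker lists of other cell types were read in the same fits, with edgeR calls given per list. Over all genes, 0.0992% were called in BAT against the white mean, 0.141% in IWAT against EWAT and RWAT, and 0.0418% in EWAT against RWAT. Of 10 brown adipocyte genes, 4 were called higher in BAT than in the white mean and 1, Lhx8, a homeobox gene of brown preadipocytes, was called higher in IWAT than in EWAT and RWAT, with 0 called in EWAT against RWAT. Of 6 epithelial genes, 1, Bspry, was called higher in EWAT than in RWAT, with 0 called in the other comparisons. The lists of slow muscle fibre, heart muscle, smooth muscle, adipocyte, B cell, T cell, platelet, endothelial, macrophage and Schwann cell genes had 0 called in each comparison. Casq2, the calcium store protein of heart and slow fibres, named after its values were seen, had 2.91, 4.96 and 1.74 TPM in BAT and 36.7 TPM in RWAT replicate 3, the library with the highest sarcolipin, against 0.41 to 6.89 TPM in the other 8 libraries.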
